A study of Mus musculus with 2 samples.

Results

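The pyruvate dehydrogenase complex and its regulators were described in mouse gastrocnemius, the large calf muscle, as 10 genes chosen by name out of 55536 annotated genes. The 10 genes were the complex subunits Pdha1, Pdhb, Dlat, Dld and Pdhx, the kinases Pdk1, Pdk2, Pdk3 and Pdk4, and the phosphatase gene Pdp1. Total RNA from 2 adult male mice of the strain B6CASTF1/J, aged 8 to 10 months, was sequenced in 1 library per animal. The strain is an F1 cross between the laboratory strain C57BL/6J and the wild-derived CAST/EiJ, so each animal has 1 chromosome set from either parent, and the parental alleles were not told apart. Each library was made from 300 ng of RNA. The labels name 1 group with no treatment, mutation or diet, so the animals (replicate 1 and replicate 2) could be described and set side by side, and no condition could be tested. Both animals have different numbers in the labels under 1 shared donor identifier, and values after ± are SDs over these 2 animals.

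The pyruvate dehydrogenase complex sits in the mitochondrial matrix and turns pyruvate from glycolysis into acetyl-CoA, which commits carbohydrate carbon to oxidation. Its first component, E1, is a heterotetramer of alpha and beta chains, E2 is the acetyltransferase core, E3 reoxidizes the lipoyl groups of E2, and E3BP fixes E3 to the core. Kinases of the PDK family phosphorylate E1 alpha and switch the complex off, and phosphatases remove the phosphates and switch it on. In skeletal muscle the kinase gene Pdk4 is known to be induced by fasting and by fatty acids, and the phosphatase PDP1 is known to be stimulated by calcium.

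Libraries held 36792619 estimated gene counts in replicate 1 and 37752252 in replicate 2. Muscle markers were abundant in both, with 6 of 6 skeletal muscle markers (Ckm, Acta1, Myh4, Atp2a1, Pvalb and Mylpf) summing to 76041 TPM in replicate 1 and 81009 TPM in replicate 2. TPM is a relative abundance corrected for transcript length, so TPM of different genes can be set side by side. The 5 heart muscle markers summed to 6.51 and 6.98 TPM, and the 2 liver markers to 0.04 and 0.00 TPM, with Apoa1 listed at 0 in both. Slow fibre genes stood higher in replicate 1, with all 11 positive log2 ratios and a summed level of 1956 TPM in replicate 1 and 1292 TPM in replicate 2. Ratios are replicate 1 over replicate 2, from counts under trimmed mean (TMM) scaling, and are given as log2 values unless called fold. Scaling by total counts in its place shifted the median ratio of the 9515 genes averaging at least 100 counts by -0.11, and scaling by spike-ins shifted it by 0.15.

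The promoters of Pdk4 and Pdk2 are shown because these 2 kinase genes held most kinase RNA and behaved differently between the animals. Each window covers 250 bases before and 50 after the annotated RefSeq start (GRCm38.p6, gene strand, 5′ to 3′), and both genes lie on the minus strand. Pdk4 lies at chr6:5496229-5496528 and the upstream of 2 annotated Pdk2 starts at chr11:95041322-95041621. Capitals mark every match to the motifs searched.
Pdk4: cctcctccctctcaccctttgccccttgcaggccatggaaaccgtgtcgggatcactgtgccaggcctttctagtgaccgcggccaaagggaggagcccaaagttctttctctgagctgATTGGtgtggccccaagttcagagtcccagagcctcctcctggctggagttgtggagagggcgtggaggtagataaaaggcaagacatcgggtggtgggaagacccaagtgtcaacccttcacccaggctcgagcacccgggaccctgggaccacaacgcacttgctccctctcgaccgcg
Pdk2: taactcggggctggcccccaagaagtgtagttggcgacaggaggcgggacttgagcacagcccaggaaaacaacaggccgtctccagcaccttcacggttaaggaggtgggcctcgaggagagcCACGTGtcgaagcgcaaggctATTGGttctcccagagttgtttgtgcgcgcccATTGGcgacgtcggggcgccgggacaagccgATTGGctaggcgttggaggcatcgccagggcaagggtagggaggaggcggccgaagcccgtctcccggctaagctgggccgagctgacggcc

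Motifs were searched on both strands in the 11 windows of the 9 members that the RefSeq table holds, Pdp1 being the gene without an entry. They were the FOXO element GTAAACA, the nuclear receptor half-site AAGGTCA, the NRF1 core TGCGCA, the Sp1 box GGGCGG, the CCAAT box CCAAT, the TATA box TATAAA, the E-box CACGTG and the hypoxia response core ACGTG, which lies within the E-box. Pdk4 held a single match, a reverse-strand CCAAT box whose first base lay at -131, and 12 CpG pairs. Pdk2 held 3 reverse-strand CCAAT boxes at -105, -73 and -42 and an E-box at -126, with 25 CpG pairs. A CCAAT box was found at 6 of 9 members, in 6 of their 11 windows, and in 37.4% of all 32851 windows of that length. The Sp1 box was found at 5 members (5 windows) and in 35.7% of all windows. The hypoxia core was found at 3 members (3 windows) and in 19.6%. The E-box and NRF1 core were found at 1 member (1 window) each and in 7.15% and 7.76%. Member windows were richer in GC and CpG, with medians of 62% and 21 against 52.7% and 7 over all windows. No window of a member held the letters of the FOXO element (3.65% of windows), the half-site (4.72%) or the TATA box (13.6%). These are matches of letters in short windows and no binding was measured.

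Subunit genes of the complex were abundant, and the level of each gene was close between the animals. Pdha1 (ENSMUSG00000031299.10, chromosome X, 160122209 to 160138413 in mm10), the E1 alpha subunit that the kinases phosphorylate, had 230.17 TPM in replicate 1 and 218.52 TPM in replicate 2. It ranked 220 among 22015 nuclear protein-coding genes by mean TPM and was the most abundant of the 10 genes, at 224 ± 8.24 TPM (SD, n = 2). Males have a single X chromosome, so its reads come from 1 parental copy. Pdhb (ENSMUSG00000021748.9, chromosome 14, 8165996 to 8173025), the E1 beta subunit, had 112.84 and 108.34 TPM in replicates 1 and 2. Although both chains enter E1 in equal number, Pdha1 RNA exceeded Pdhb RNA by a TPM ratio of 2.04 in replicate 1 and 2.02 in replicate 2. Of the 31-base words of Pdhb transcripts, 82.6% occurred in no other gene, and most shared words lay in Gm6123, which had 0.40 and 0.33 TPM, so how reads were divided between them is uncertain.

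Dlat (ENSMUSG00000000168.9, chromosome 9, 50634633 to 50659780), the E2 acetyltransferase, had 92.74 TPM in replicate 1 and 84.14 TPM in replicate 2. Dld (ENSMUSG00000020664.10, chromosome 12, 31331277 to 31351453), the E3 dehydrogenase that also serves the 2-oxoglutarate and branched-chain complexes, had 75.48 and 68.30 TPM. Pdhx (ENSMUSG00000010914.10, chromosome 2, 103021075 to 103073513), the E3-binding protein, was the least abundant subunit gene, with 33.07 and 37.10 TPM. The Dlat to Pdhx ratio was 2.80 in replicate 1 and 2.27 in replicate 2, while Dlat to Dld stood at 1.23 in both. These ratios and the shares below use gene totals. Transcripts without a coding frame held 49.2% of Dlat TPM in replicate 1 and 44.3% in replicate 2. As shares of the summed subunit TPM, Pdha1 held 42.3% ± 0.0203, Pdhb 20.9% ± 0.176, Dlat 16.7% ± 0.527, Dld 13.5% ± 0.453 and Pdhx 6.63% ± 0.784 (SD, n = 2). The Pdhx share was 6.08% in replicate 1 and 7.18% in replicate 2. The summed subunit level was 544 TPM in replicate 1 and 516 TPM in replicate 2.

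**Figure D1:**
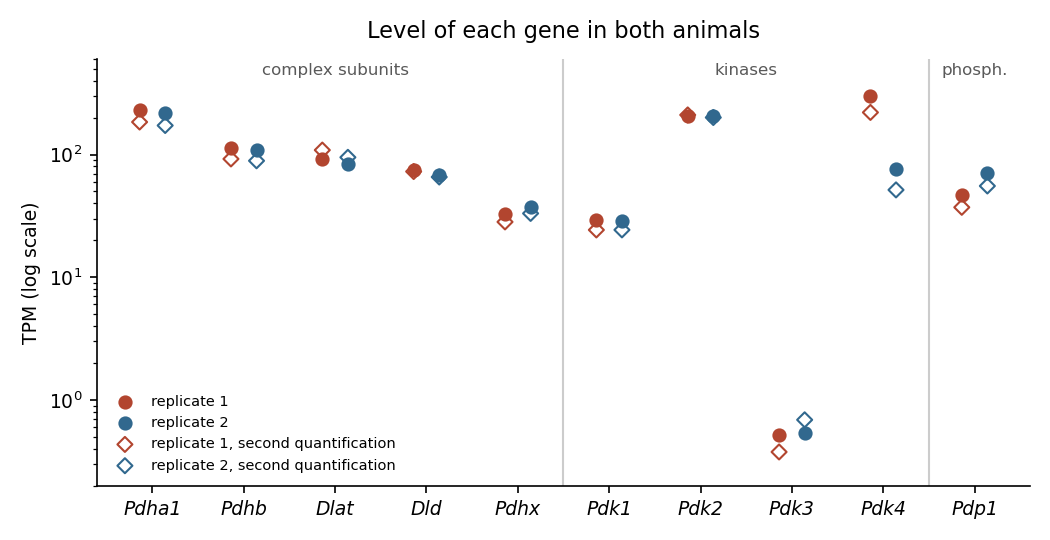
Level of each of the 10 genes in TPM (log scale), with filled circles for the gene table, open diamonds for the second quantification, red for replicate 1 and blue for replicate 2, and 1 point per animal. Subunit genes and Pdk2 lie close together between animals, Pdk4 lies at 302.10 TPM in replicate 1 and 76.67 TPM in replicate 2, and Pdk3 lies below 1 TPM.

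Kinase genes spanned a far wider range of levels than the subunit genes. Pdk2 (ENSMUSG00000038967.13, chromosome 11, 95026258 to 95041354), the broadly expressed kinase, had 205.46 TPM in replicate 1 and 206.53 TPM in replicate 2, or 206 ± 0.757 TPM (SD, n = 2), which placed it just below Pdha1. Pdk4 (ENSMUSG00000019577.6, chromosome 6, 5483351 to 5496309), the kinase induced by fasting, had 302.10 TPM in replicate 1 and 76.67 TPM in replicate 2. The quantifier's own intervals for Pdk4 ran from 283 to 306 TPM in replicate 1 and from 71.3 to 81.1 TPM in replicate 2, far apart from each other. By gene totals, Pdk4 was therefore the most abundant of the 10 genes in replicate 1 and lay between Dlat and Pdp1 in replicate 2. Pdk1 (ENSMUSG00000006494.11, chromosome 2, 71873224 to 71903858), a kinase known as a target of hypoxia-inducible factor, had 29.12 and 28.70 TPM. Pdk3, the X-linked kinase gene (ENSMUSG00000035232.8, chromosome X, 93764607 to 93832201) had 0.52 TPM in replicate 1 and 0.54 TPM in replicate 2, from 23 and 29 counts, and the quantifier's own intervals ran from 0.391 to 1.43 TPM and from 0.434 to 1.33 TPM. Pdk3 was the single member that averaged fewer than 100 counts.

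In the order of mean TPM, Pdha1 was followed by Pdk2, Pdk4, Pdhb, Dlat, Dld, Pdp1, Pdhx, Pdk1 and Pdk3. The values of neighbours overlapped between Pdk2 and Pdk4, between Pdk4 and Pdhb and between Dld and Pdp1, and did not overlap for the other 6 pairs of neighbours. In the second quantification Pdk2 stood above Pdha1, with a Pdk2 to Pdha1 TPM ratio of 1.14 in replicate 1 and 1.16 in replicate 2, against 0.893 and 0.945 in the gene table. Dlat likewise stood above Pdhb there, with 109 TPM for Dlat and 92.1 TPM for Pdhb in replicate 1 and 94.9 and 89.0 TPM in replicate 2, the reverse of the gene table. Counted by coding transcripts alone, Dlat lay below Dld in both animals, the reverse of the gene totals. With 2 animals, a lack of overlap says little about other animals.

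The kinase mixture differed between the animals mainly in Pdk4. Pdk4 held 56.2% of the summed kinase TPM in replicate 1 and 24.5% in replicate 2, and Pdk2 held 38.2% and 66.1%. In the second quantification Pdk4 held 48.4% in replicate 1 and 18.6% in replicate 2, and Pdk2 held 46.2% and 72.4%. Pdk1 held 5.42% and 9.19% in the gene table, and Pdk3 0.0968% and 0.173%. Without Pdk4, the summed kinase level was 235.10 TPM in replicate 1 and 235.77 TPM in replicate 2. Relative to the summed subunit TPM, all kinases together reached 98.7% in replicate 1 and 60.5% in replicate 2. RNA levels do not give enzyme amounts or activity, and the phosphorylation of E1 alpha was not measured here.

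**Figure D2:**
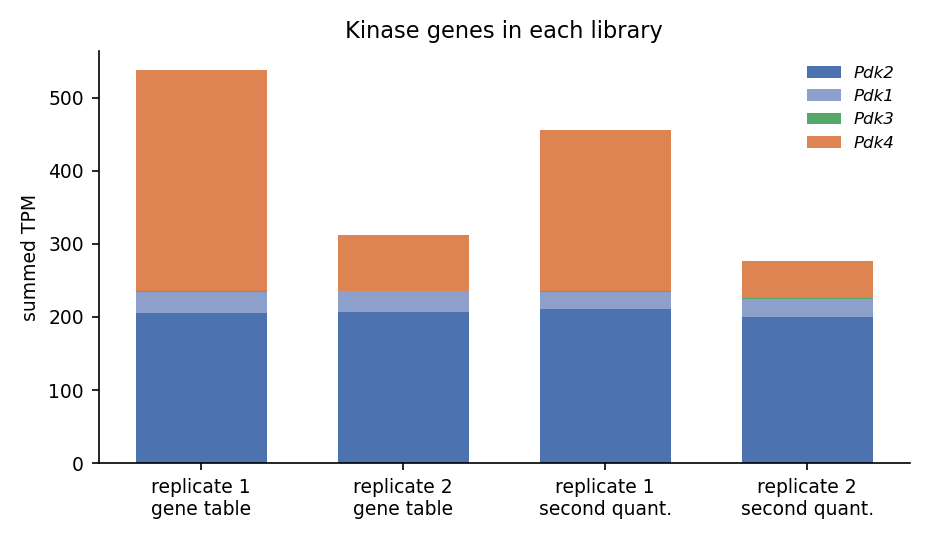
Stacked bars of the TPM of Pdk2, Pdk1, Pdk3 and Pdk4 (bottom to top) in each library, for the gene table (left pair) and the second quantification (right pair), with 1 bar per animal. The Pdk4 part is 302.10 TPM in replicate 1 and 76.67 TPM in replicate 2 in the gene table, the part below it is nearly equal, and Pdk3 is too small to see.

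Pdp1 (ENSMUSG00000049225.14, chromosome 4, 11958184 to 11966452), the calcium-stimulated phosphatase, had 46.65 TPM in replicate 1 and 71.00 TPM in replicate 2, the opposite order to Pdk4. The Pdk4 to Pdp1 TPM ratio was 6.48 in replicate 1 and 1.08 in replicate 2, and the ratio of summed kinases to Pdp1 was 11.5 and 4.40. Pdp2, the second phosphatase, was scarce, with 0.84 and 1.28 TPM, so the Pdp1 to Pdp2 ratio was 55.5 in both animals. Pdpr, the regulatory subunit of the phosphatase, had 56.06 and 55.95 TPM, close to Pdp1 in level and nearly equal between animals.

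Set against all genes, Pdk4 stood far out, and Pdp1 lay at the edge. Of the 9 members averaging at least 100 counts, 1, Pdk4, was at least 1.5-fold apart between the animals, against 3.38% of the 9515 genes with that minimum. At 2-fold or more it was again Pdk4 alone, against 0.925% of genes in either direction, 0.578% higher in replicate 1 and 0.347% higher in replicate 2. Pdk4 had 18048 counts in replicate 1 and 5308 counts in replicate 2, a 3.77-fold ratio with an exact 95% counting interval of 3.66 to 3.89. Among 3037 protein-coding genes averaging at least 1000 counts, 2 had a higher count ratio than Pdk4. Pdp1 had 3172 counts in replicate 1 and 5254 counts in replicate 2, and its log2 ratio of -0.58 (interval -0.64 to -0.51) lay just inside the 1.5-fold limit. Scaled by total counts, Pdp1 had a ratio of -0.69 and passed it. Among the same 3037 genes, 11 had a lower ratio than Pdp1. Intervals cover counting error only, each animal gave 1 library, and no difference between the animals has a replicate check.

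The other members with that minimum lay near the median of all genes. Pdk1 had a log2 ratio of 0.21 (interval 0.14 to 0.29), from 2938 counts in replicate 1 and 2816 in replicate 2, and stayed positive under each scaling. Pdhx had -0.13 (interval -0.23 to -0.03), which turned to 0.02 under spike-ins. Pdha1, Dld, Dlat, Pdhb and Pdk2 had ratios of 0.05, 0.07, 0.01, -0.0025 and -0.03, and the sign of each changed under total counts or spike-ins. The median over the 9 members was 0.01, beside 0.00 over all 9515 genes.

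**Figure D3:**
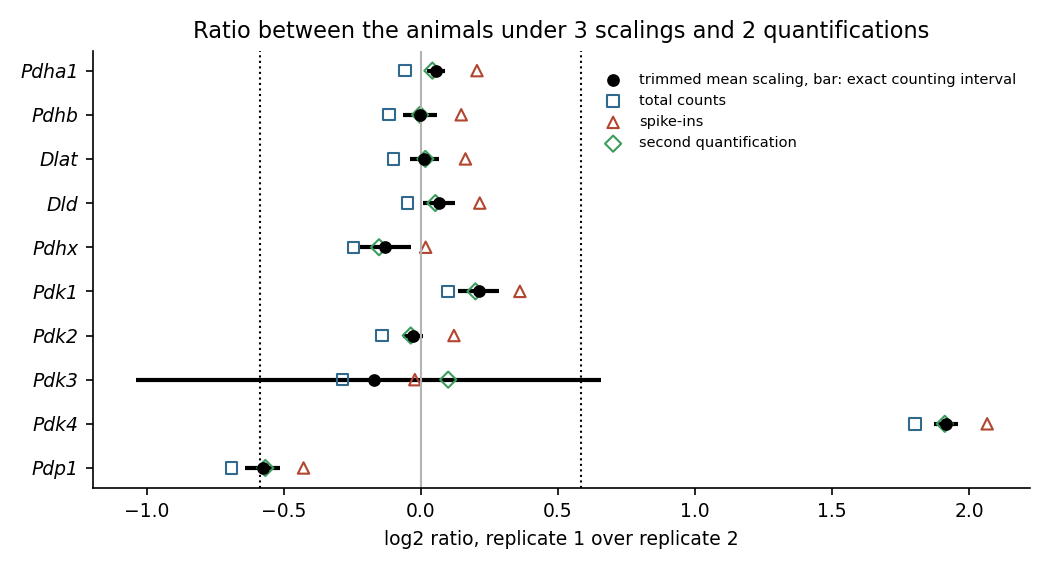
Log2 ratio of replicate 1 over replicate 2 for the 10 genes, with black points and bars for the trimmed mean scaling and its exact 95% counting interval, squares for total counts, triangles for spike-ins and diamonds for the second quantification, and dotted lines at 1.5-fold. Pdk4 stays between 1.80 and 2.07 under all of these, Pdp1 between -0.69 and -0.43, and the Pdk3 bar spans both dotted lines.

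**Figure D4:**
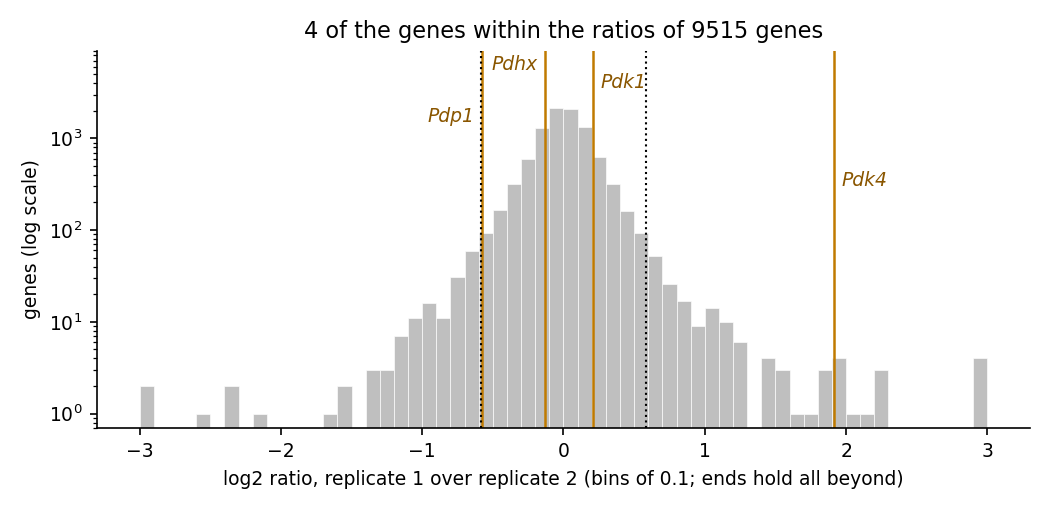
Histogram of log2 ratios (replicate 1 over replicate 2, bins of 0.1) over 9515 genes averaging at least 100 counts, on a log count axis, with Pdp1, Pdhx, Pdk1 and Pdk4 as vertical lines and dotted lines at 1.5-fold. Pdk4 lies in the sparse right tail at 1.92, and Pdp1 lies beside the lower dotted line at -0.58.

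In the order of ratios over these 2 samples, the neighbours of Pdk4 among genes averaging at least 1000 counts were Lars2 (6.27) and Zc3h11a (2.30), the 2 genes above it, and Slc25a25 (1.90), Rcan1 (1.60) and Srxn1 (1.53) below it. Lars2 is a neighbour in rank only, since its ratio is far from the 1.92 of Pdk4. Lars2, which encodes the mitochondrial leucyl-tRNA synthetase, had 206159 counts in replicate 1 and 2966 counts in replicate 2. Sequence shared with other genes was examined for the members only, so whether all these reads came from Lars2 was not tested. Zc3h11a had 1652 and 372 counts but 28.47 and 14.41 TPM. In TPM its gap between the animals was smaller than that of Pdk4, so its place above Pdk4 holds for counts only. Slc25a25 encodes a calcium-regulated carrier of ATP and magnesium in the inner mitochondrial membrane, with 46.95 TPM in replicate 1 and 12.74 TPM in replicate 2. Rcan1 encodes a calcineurin inhibitor, with 73.85 and 23.35 TPM, and Srxn1 encodes sulfiredoxin, with 27.71 and 8.53 TPM. A likeness over 2 samples is a single ratio and says nothing of shared control.

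Fatty acid and fasting response genes had mostly higher values in replicate 1, and few were far apart. Of 18 listed, 15 averaged at least 100 counts, 2 of these were at least 1.5-fold higher in replicate 1 and 0 in replicate 2, against 1.72% and 1.66% of all genes. Ucp3, a mitochondrial carrier of muscle induced by fatty acids, had 44.42 TPM in replicate 1 and 20.08 TPM in replicate 2, a log2 ratio of 1.11. Cpt1a, the liver-type carnitine palmitoyltransferase, was scarce, with 2.99 and 1.67 TPM and a ratio of 0.63. It fell inside the 1.5-fold limit under total counts (0.52) and in the second quantification (0.56), while Ucp3 stayed past it. The abundant genes of the list were not 1.5-fold apart, with ratios of 0.39 for the fatty acid carrier Fabp3 (424.90 and 316.99 TPM), 0.23 for the lipase Lpl, 0.12 for the beta-oxidation enzyme Hadha and -0.03 for Acadm. The list median was 0.18, with 0.06 under total counts and 0.33 under spike-ins.

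Among 14 regulators known to act on Pdk4, 13 had enough counts, of which 3 were at least 1.5-fold higher in replicate 1 and 1 in replicate 2, beside 1.72% and 1.66% of all genes, with a median of 0.12. The nuclear receptor gene Ppara, which senses fatty acids, had 8.10 TPM in replicate 1 and 5.06 TPM in replicate 2, with a count-based log2 ratio of 1.15. Foxo1, a transcription factor held back by insulin signalling, had 6.55 and 3.33 TPM and a ratio of 0.95. Cebpb, among the 4 most abundant regulators by mean TPM, had 37.67 and 22.72 TPM and a ratio of 0.70. The coactivator gene Ppargc1b was higher in replicate 2 at a ratio of -0.73, with 3.96 TPM in replicate 1 and 6.18 TPM in replicate 2. The others of the 4 most abundant were Foxo4 (58.77 and 58.90 TPM), Esrra (47.17 and 42.96 TPM) and the glucocorticoid receptor gene Nr3c1 (31.44 and 32.27 TPM). They had ratios of 0.04, 0.12 and 0.01. The list median was 0.01 under total counts and 0.27 under spike-ins. The spike-in shift would also bring further regulators past 1.5-fold higher in replicate 1, so the count depends on the scaling.

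Slow fibre genes, like Pdk4, stood higher in replicate 1. Of 11 slow fibre genes, 5 were at least 1.5-fold higher in replicate 1 and 0 in replicate 2, beside 1.72% and 1.66% of all genes, with a median log2 ratio of 0.58. Csrp3, a Z-disc protein, had 1.45, and the slow troponin I gene Tnni1 had 0.77 with 124.22 TPM in replicate 1 and 71.18 TPM in replicate 2. Myh7, the slow myosin heavy chain, had 0.57, and the slow myosin light chain genes Myl2 and Myl3 had 0.51 and 0.43, all inside the limit. The others past the limit were Atp2a2 (0.65), Tnnt1 (0.68) and Tnnc1 (0.60). The count depends on the scaling. Atp2a2 fell inside the limit under total counts (0.54) and in the second quantification (0.52), while Csrp3 and Tnni1 stayed past it. The shift of -0.11 that total counts gave all genes would bring Tnnt1 and Tnnc1 inside it as well. Myh7 (0.72) and Myl2 (0.66) passed it under spike-ins, and the same spike-in shift of 0.15 would bring further genes of the list past it. The list median was 0.47 under total counts and 0.73 under spike-ins. Of 13 fast fibre genes 0 were 1.5-fold apart, beside 3.38% of all genes, a count near that background, and their median of -0.10 turned to 0.05 under spike-ins. The most abundant, Tnnt3, Atp2a1, Mylpf and Myh4, had ratios of -0.20, -0.04, -0.18 and -0.16, and those farthest from 0 were Tnni2 at -0.22 and Myh2 at 0.21. Adipocyte and smooth muscle markers stood lower in replicate 1, with 5 adipocyte markers at 17.3 TPM in replicate 1 and 26.3 TPM in replicate 2, and 4 smooth muscle markers at 40.4 and 63.3 TPM. Endothelial markers (5 of 5 detected) summed to 32.6 and 38.8 TPM, fibroblast markers (4 of 4) to 118 and 122 TPM, macrophage markers (4 of 4) to 3.99 and 2.92 TPM and blood markers (3 of 3) to 161 and 182 TPM. The part of fibre or cell make-up in the Pdk4 and Pdp1 values was not tested, and in whole muscle a change in cell number and one in RNA per cell cannot be told apart.

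Genes that feed or equip the complex mostly had ratios near 0. The mitochondrial pyruvate carrier genes Mpc1 and Mpc2 had 200.51 and 128.41 TPM in replicate 1 and 214.38 and 138.61 TPM in replicate 2. Of 13 listed genes of pyruvate import, phosphatase and cofactor supply, 9 had enough counts, and 1 was at least 1.5-fold higher in replicate 2, Pdp2, from 118 counts in replicate 1 and 204 in replicate 2, beside 1.66% of all genes. Its log2 ratio of -0.63 has a wide counting interval of -0.98 to -0.31, and was -0.48 under spike-ins, inside the 1.5-fold limit. Nfu1, an iron-sulfur cluster scaffold needed for lipoate synthesis, had 23.14 and 28.28 TPM and a ratio of -0.31. The list median of -0.12 turned to 0.03 under spike-ins. Pdha2, the testis form of E1 alpha, was listed at 0 counts in both libraries.

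For the sister complexes that share the Dld subunit, 9 of 13 listed genes had enough counts and 0 of these were at least 1.5-fold apart, near the background of 3.38% of all genes. Ogdh, the E1 subunit of the 2-oxoglutarate dehydrogenase complex, had 304.04 TPM in replicate 1 and 282.42 TPM in replicate 2, above Pdha1, and its E2 subunit gene Dlst had 110.35 and 110.59 TPM. Mrps36, known to link E3 to that complex, had 46.01 and 40.24 TPM. The branched-chain complex was less abundant, with Bckdha, its E1 alpha gene, at 48.02 and 52.06 TPM. Its kinase gene Bckdk, related in sequence to the PDK family, had 76.73 and 79.46 TPM and a ratio of -0.06, and its phosphatase gene Ppm1k 5.75 and 7.16 TPM and a ratio of -0.17.

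Among genes for other fates of pyruvate, 0 of 10 with enough counts were 1.5-fold apart, near the background of 3.38% of all genes. Ldha, the muscle lactate dehydrogenase, had 1225 TPM in replicate 1 and 1251 TPM in replicate 2, and Ldhb 145.05 and 129.08 TPM. The malic enzyme gene Me1 had 132.23 and 123.96 TPM. The lactate exporter gene Slc16a3 had 111.08 and 144.08 TPM and a ratio of -0.37. Slc16a1, a monocarboxylate carrier of oxidative fibres, had 11.23 and 9.03 TPM and a ratio of 0.28.

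Annotated transcripts of the 10 genes numbered 49, and 8 of the genes had retained intron or processed transcripts without a coding frame beside the coding ones. A single transcript led in either animal and under either quantification for 7 of the 10 genes, the exceptions being Dlat, Pdk3 and Pdp1. Pdha1-201, a transcript of 2848 bases and 11 exons, held 99.4% ± 0.594 of Pdha1 TPM, Pdhb-201 97.2% ± 2.24 of Pdhb TPM and Dld-201 97.8% ± 3.05 of Dld TPM (SD, n = 2). Pdk2-201 held 95.9% ± 0.622 in the gene table's quantification and 75.4% ± 2.20 in the second.

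Pdk4-201, the coding transcript of 3484 bases and 11 exons, held 66.8% of Pdk4 TPM in replicate 1 and 68.8% in replicate 2. It held 95.3% and 96.0% of the estimated counts. The retained intron transcript Pdk4-202 is only 412 bases long and held 27.64% and 31.03% of TPM from 656.05 and 211.79 counts. In the second quantification its share was 10.6% in both. A second coding Pdk4 transcript of 573 bases had 16.87 TPM in replicate 1 and 0.12 TPM in replicate 2, and 36.5 and 4.25 TPM in the second quantification. Counted by the longest coding transcripts alone, Pdk4-201 had 201.73 TPM in replicate 1 and 52.76 TPM in replicate 2, and Pdk2-201 had 197.92 and 197.12 TPM. On this measure Pdk4 and Pdk2 were nearly equal in replicate 1, so the lead of Pdk4 over Pdk2 there rested on short transcripts. In replicate 2 Pdk2 stood well above Pdk4 on either measure. Pdha1-201, at 229.67 TPM in replicate 1, lay above Pdk4-201, so the first place of Pdk4 there rested on short transcripts as well. In replicate 2 Pdk4-201 lay below Dld-201, at 68.26 TPM.

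Dlat showed the same feature more strongly. Dlat-202, a processed transcript of 770 bases, held 47.1% of Dlat TPM in replicate 1 and 42.6% in replicate 2 but 13.6% and 11.5% of counts, while Dlat-201 of 4035 bases held 50.9% and 55.7% of TPM. The second quantification gave Dlat-202 43.3% and 37.4%, and gave Dlat-206, a retained intron transcript, 22.9% and 22.8%, against 1.16% and 0.00% in the first. Dlat-201, the coding transcript, had 47.16 TPM in replicate 1 and 46.89 TPM in replicate 2. The coding transcript Dld-201 had 72.18 and 68.26 TPM, so the lead of Dlat over Dld rested on short transcripts. Pdk1-206, of 777 bases, likewise held 23.1% and 33.2% of Pdk1 TPM from 3.90% and 6.53% of counts. An annotated coding transcript of Pdhx of 655 bases held 29.5% and 33.9% of Pdhx TPM from 8.80% and 10.6% of counts.

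Pdp1 had 6 annotated coding transcripts and none that dominated. Its longest transcript, of 4201 bases, led in replicate 1 with 23.95% and Pdp1-201 in replicate 2 with 27.3% in the gene table's quantification, while the second quantification gave the largest share to Pdp1-204, at 40.9% and 38.2%, and none to Pdp1-202 and Pdp1-206. The split of Pdp1 among its transcripts is therefore uncertain, and its gene total was lower in replicate 1 in both quantifications, at 37.1 TPM in replicate 1 and 55.4 TPM in replicate 2 in the second. Pdk3 had too few counts for a split.

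**Figure D5:**
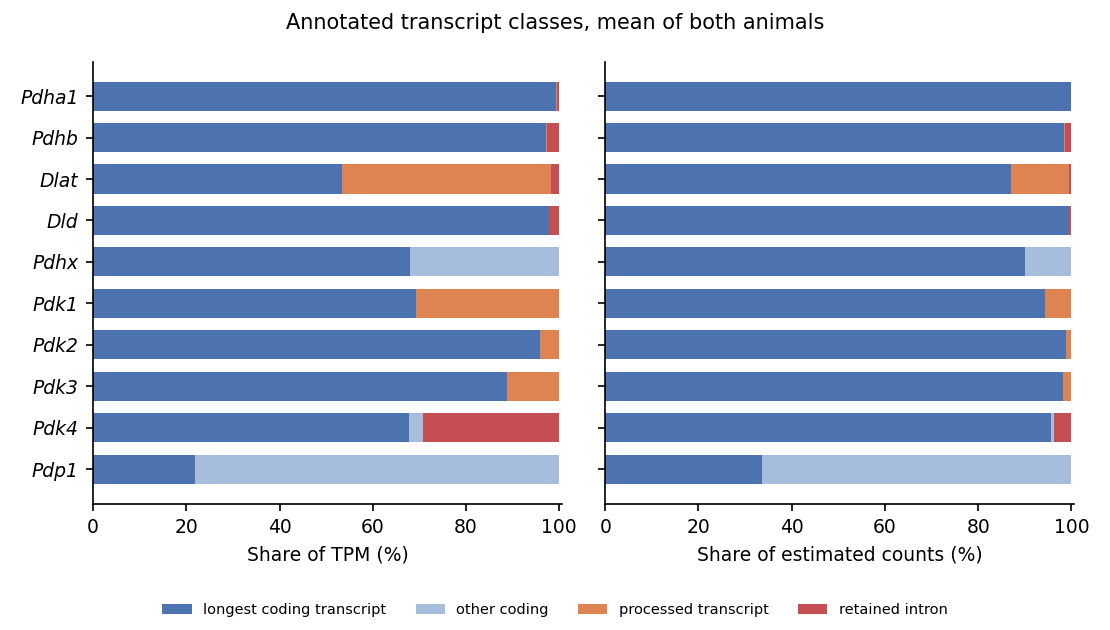
Stacked bars of the share of each gene's TPM (left) and estimated counts (right), in percent and averaged over both animals, held by its longest coding transcript, other coding transcripts, processed transcripts and retained intron transcripts. Short transcripts take a large part of TPM for Dlat, Pdhx, Pdk1 and Pdk4 and a much smaller part of counts, and Pdp1 is spread over several coding transcripts.

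Sharing of sequence with other genes was small for most members. Dlat, Pdk2 and Pdk3 had 100% of their 31-base words in no other gene, and the other genes apart from Pdhb had at least 95.8%, with 98.4% for Pdk4. Exons of Pdha1 overlapped those of Map3k15 on the opposite strand, which had 24 counts in replicate 1 and 25 in replicate 2, and the antisense gene Gm11513, listed at 0 in both libraries, overlaps the Pdk2 locus outside its exons.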

How the data were processed

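Per the labels' protocols, total RNA entered a directional library kit, with ERCC spike-ins of a profile for ribosome-reduced libraries. Per the deposited README, the tables used mm10 and GENCODE M21. The gene table and first transcript table came from transcriptome alignments (RSEM column names, per the file headers), and the other transcript table directly from reads (kallisto column names). No source used here states upstream tool versions or the strand setting of counting. Expected counts, as deposited, are estimated read numbers without normalization. The authors' deposited TPM values cover all entries, spike-ins included. The percent column, per the file headers, is a transcript's share of its gene. Entries that are not genes held 0.257% and 0.308% of counts and were left out. Alleles of the parent strains were not separated.

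Expected counts were rounded, scaled with TMM in edgeR 4.0.16 (R 4.3.3) and compared as log2 ratios with a prior of 1 count. With 1 library per animal no p-value was computed. A gene was called apart at 1.5-fold or more with a mean of 100 or more counts. Intervals are exact Clopper-Pearson intervals at 95% and cover counting error only. The counts of both libraries differed by a chi-square of 138 per degree of freedom, more than a duplicate deposit would give. That the libraries are from 2 animals rests on the labels alone. The calls, the signs of ratios and the coverage of intervals were tested on simulated counts, and TPM levels and shares were not. The simulation drew counting noise only, so it does not cover differences between animals. Alternatives were scaling by total counts, spike-ins or size factors from DESeq2 1.42.0, a prior of 0.5, count minimums of 10 and none, the second quantification, a nuclear protein-coding denominator and each animal left out. Promoters are those of RefSeq (GRCm38.p6). Tables and intervals were made in Python 3.11.15 with scipy 1.17.1 and pandas 2.3.3.

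The members and lists were chosen with earlier results of these data known. Named genes were all members, the 4 most abundant and the 2 with the largest absolute ratio of each list, and up to 3 protein-coding genes on each side of Pdk4 in the order of ratios at a mean of 1000 or more counts. Ppargc1b, Tnnt1, Tnnc1 and Pdha2 lie outside this rule and were named after their values were seen. Genes that share sequence or position with a member were named for that overlap.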

Additional observations from a re-analysis of the deposited data

How the results depend on the processing

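Pdk4 was at least 1.5-fold apart under each scaling, prior, count minimum and quantification tried. Total counts raised the number of members apart to 2, the added gene being Pdp1, and the other alternatives left it at 1. The median log2 ratio of the members was -0.10 under total counts and 0.16 under spike-ins, which follows from the shift these scalings give all genes. With each animal left out, the Pdk4 share of summed kinase TPM was 24.5% to 56.2%, the Pdk2 share 38.2% to 66.1%, and summed kinases reached 60.5% to 98.7% of summed subunits. The mean Pdk4 share was 33.5% in the second quantification and 33.7% from the longest coding transcripts alone, an alternative chosen after seeing the data, against 40.4%. Single-gene ratios were run under the alternatives for the members and the list genes named by rule, 50 in all. Ratios of Ppargc1b, Tnnt1, Tnnc1 and the neighbours of Pdk4 were not, though the shift from total counts would bring Tnnt1 and Tnnc1 inside 1.5-fold. Those of the 50 that were past 1.5-fold kept their sign, which the small shifts from scaling and prior could not have changed. Atp2a2, Cpt1a and Pdp2 fell inside that limit under some alternatives. Ratios near 0, such as that of Pdha1, changed sign with the scaling. Of the 50 ratios, 42 moved beyond their counting interval under spike-ins and 39 under total counts. In the second quantification 5 moved, under DESeq2 size factors 2 and with the smaller prior 0. Mean TPM of all 10 members was higher over a nuclear protein-coding denominator, which raises every such gene whatever its level. Nuclear protein-coding genes held 431355 TPM in replicate 1 and 437601 TPM in replicate 2. Of 10 dominant transcript shares, 7 moved by more than 1 SD in the second quantification. Depth limits Pdk3, whose counts allow ratios on either side of 1.5-fold. No paired analysis was possible because the study has a single group.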
